A study of Mus musculus with 6 samples.

Results

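The 4 EHD genes of the mouse (Ehd1, Ehd2, Ehd3 and Ehd4) and the 2 RAB6 genes (Rab6a and Rab6b) were followed here in embryonic heart cells. They are 6 of the 15159 genes in the count table and all 6 passed the filter on low counts. The group was selected on measured values: Ehd3 and Rab6b were chosen because they had fallen in H3K9M cells in a comparison of all genes, and the other 4 were added as their paralogues. On GRCm38 Ehd1 lies at chr19:6276725-6300096, Ehd2 at chr7:15946958-15967567, Ehd3 at chr17:73804134-73832094, Ehd4 at chr2:120089175-120154606, Rab6a at chr7:100607410-100641268 and Rab6b at chr9:103111787-103185276, whole genes in GENCODE M21. The values of this contrast are therefore a description of the 6 genes and not a test of them.

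EHD proteins are membrane-remodelling ATPases of the dynamin superfamily that return endocytosed receptors and channels from endosomes to the cell surface. EHD1 and EHD3 act at the recycling compartment, EHD4 at early endosomes and EHD2 at the neck of caveolae. In heart muscle EHD3 is known as a partner of ankyrin-B in the delivery of ion channels and exchangers to the plasma membrane. RAB6 proteins are small GTPases of the Golgi that recruit motors and tethers to transport vesicles. RAB6A is made in most cells, whereas RAB6B is known chiefly from neurons.

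The cells came from C57BL/6 x 129S4/SvJae hearts at embryonic day 18.5 and carried a doxycycline-inducible H3.3 transgene, wild-type in the H3WT group and with lysine 9 replaced by methionine in the H3K9M group. Methylated lysine 9 of histone H3 is a mark of silent chromatin. The mutant is known to act as an inhibitor of that methylation, which was not measured here. Both groups received doxycycline at 2 µg/ml and were grown for 4 days on a silicone (PDMS) substrate of 13 kPa. Each group had 3 libraries of polyadenylated RNA. The labels name neither the promoter of the transgene nor the embryos behind each library. The library titles carry the marks M1, M2 and M5 in H3WT and M1, M3 and M5 in H3K9M. What these marks mean is not given, and the main model did not use them. The title of the second library of each group lacks the word for the soft substrate, which the culture protocol gives for all 6. Because separate animals are not stated, p-values measure only the spread between these libraries, which may be technical.

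The libraries held 55550379 to 67994773 counts. The comparison of 14758 genes used the quasi-likelihood test of edgeR with a threshold of 0.05 on the adjusted p. It called 1.99% of them, 138 as higher (0.935%) and 155 as lower (1.05%) in H3K9M. The median log2 fold change of all tested genes was -0.00245. All 12 cardiomyocyte markers were tested, and their summed level was 27106 to 33403 CPM (counts scaled to a common library size after TMM normalisation) in H3WT and 28855 to 32463 CPM in H3K9M. Fibroblast markers were also high, at 24444 to 31291 and 19724 to 28507 CPM in the 2 groups. In such bulk samples fewer cells of a type and less RNA per cell cannot be told apart.

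The paralogues resemble each other in sequence, which bears on how their reads are told apart. The coding sequences of Ehd3 and Ehd1, the closest pair, were identical at 80.0% of 1602 aligned bases, and those of Rab6a and Rab6b at 78.4% of 624 bases. No stretch of 50 bases in a transcript of 1 of the 6 genes occurred in a transcript of another of them. The pairs of stretches shown here are the 60 coding bases, within 1 exon of both genes, where each changed gene is most like its closest paralogue. Capitals mark the bases that differ from the partner, 2 for the EHD pair and 10 for the RAB6 pair. All are read from GENCODE M21 transcripts on build GRCm38, on the plus strand, at chr17:73827314-73827373 (exon 4 of Ehd3), chr19:6294378-6294437 (exon 3 of Ehd1), chr9:103112166-103112225 (exon 1 of Rab6b) and chr7:100608233-100608292 (exon 1 of Rab6a).
Ehd3: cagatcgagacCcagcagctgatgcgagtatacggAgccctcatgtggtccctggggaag
Ehd1: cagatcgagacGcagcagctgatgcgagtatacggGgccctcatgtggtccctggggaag
Rab6b: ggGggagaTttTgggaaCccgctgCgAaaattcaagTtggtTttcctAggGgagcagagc
Rab6a: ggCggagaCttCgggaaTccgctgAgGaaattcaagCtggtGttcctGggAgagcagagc

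The longest identical run of coding bases was 40 between Ehd3 and Ehd1 and 14 between the RAB6 genes. The other EHD pairs were 71.2% to 74.4% identical. Rab6a overlaps Mrpl48, a gene of the mitochondrial ribosome on the opposite strand. Of the 3716 words of 50 bases in Rab6a transcripts 705 (19.0%) occur in at least 1 other gene, 659 of them in Mrpl48. The strand setting of the counting is not given in the sources used here, so part of the Rab6a count may belong to that neighbour.

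Ehd3, the recycling ATPase linked to ankyrin-B, was the only EHD gene of the 4 that passed the threshold, and it fell about 6-fold. It stood at 114, 73.3 and 41.8 CPM in H3WT replicates 1, 2 and 3 and at 13.0, 12.1 and 12.9 CPM in the H3K9M libraries. The groups did not overlap, and the lowest H3WT library lay above every H3K9M library. The H3WT libraries spread over a 2.72-fold range, whereas the H3K9M libraries lay within 1.08-fold of each other. These levels rest on 6384, 4070 and 2842 counts in H3WT and on 734 to 761 counts in H3K9M. The log2 fold change was -2.59 ± 0.31 (SE), with a 95% interval from -3.30 to -1.88, a level 6.02-fold higher in H3WT. Its edgeR adjusted p, from the same contrast on which it was chosen, was 0.00695.

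Rab6b, the RAB6 gene known from neurons, was scarce in H3WT and under 2 CPM in every H3K9M library. It stood at 8.12, 6.74 and 6.95 CPM in H3WT and at 0.837, 0.461 and 1.48 CPM in H3K9M replicates 1, 2 and 3. The groups did not overlap. Here the H3WT libraries were close to each other, within 1.21-fold, and the H3K9M libraries spread over 3.22-fold, the reverse of Ehd3. The counts behind the values were 456, 374 and 473 in H3WT and 49, 28 and 85 in H3K9M. The log2 fold change was -2.97 ± 0.38 (SE), with a 95% interval from -3.84 to -2.10, a level 7.85-fold higher in H3WT. Its edgeR adjusted p, again from the contrast on which it was chosen, was 0.00932.

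**Figure D1:**
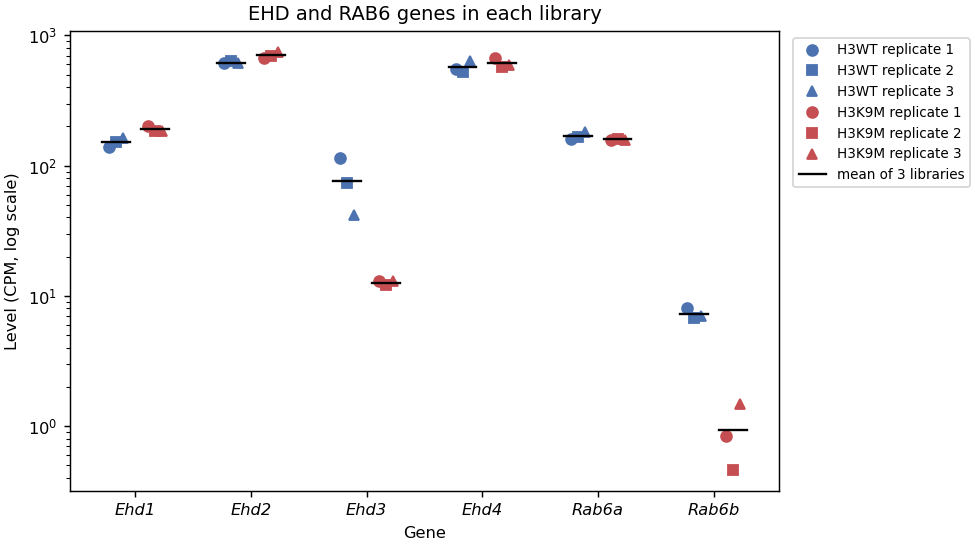
Level of each gene in CPM (log scale) in the 6 libraries, blue for H3WT and red for H3K9M, with 1 symbol per replicate and a bar at the mean of 3 libraries. Ehd3 falls from 41.8 to 114 CPM in H3WT to 12.1 to 13.0 CPM in H3K9M and Rab6b from 6.74 to 8.12 CPM to 0.461 to 1.48 CPM, while the groups of the other 4 genes lie close together.

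The closest paralogue of Ehd3 lay in the other direction. Ehd1, the ATPase of the endocytic recycling compartment, stood at 140, 151 and 164 CPM in H3WT and at 201, 185 and 185 CPM in H3K9M. The groups did not overlap, but Ehd1 did not pass the threshold (log2 fold change 0.33 ± 0.08, 95% interval 0.14 to 0.51, edgeR adjusted p = 0.0918). With DESeq2 its adjusted p was 0.0121. Over the 13 alternative fits the adjusted p of Ehd1 ranged from 0.0121 to 0.278, and DESeq2 was the 1 fit that called it. Ehd1 was the gene nearest the threshold on its far side, and Rab6b the nearest on its near side.

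Ehd2, the ATPase of caveolae, was at 611, 634 and 610 CPM in H3WT and 672, 698 and 744 CPM in H3K9M. These groups did not overlap either, and the log2 fold change was 0.19 ± 0.08 (edgeR adjusted p = 0.270). Ehd4, the ATPase of early endosomes, was at 549, 521 and 638 CPM in H3WT and 666, 572 and 593 CPM in H3K9M. Its groups overlapped (0.10 ± 0.10, 95% interval -0.13 to 0.33, edgeR adjusted p = 0.690).

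Rab6a, the Golgi RAB of most cells, was at 160, 167 and 182 CPM in H3WT and at 159, 161 and 158 CPM in H3K9M. The groups overlapped, with a log2 fold change of -0.09 ± 0.07 (95% interval -0.26 to 0.08, edgeR adjusted p = 0.586).

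Of the 6 genes 2 passed the threshold, both lower. Among all tested genes 11.3% had groups that did not overlap with H3K9M lower and 11.3% with H3K9M higher. In these 6 genes it was 2 lower (Ehd3 and Rab6b) and 2 higher (Ehd1 and Ehd2). Nothing is read from these counts, since the contrast chose the genes.

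Levels per kilobase of exon (CPM divided by the exonic length of the protein-coding transcripts) put the changed genes at the bottom of their families. In H3WT the order was Ehd4 at 153 ± 16.4, Ehd2 at 121 ± 2.71, Rab6a at 49.5 ± 3.18, Ehd1 at 45.2 ± 3.54, Ehd3 at 20.8 ± 9.86 and Rab6b at 1.45 ± 0.149 CPM per kilobase (SD, n = 3). Of the neighbours in this order only Rab6a and Ehd1 overlapped, at 46.7 to 52.9 and 41.7 to 48.8. In H3K9M the order of these 2 was exchanged, with Ehd1 at 56.7 ± 2.80 and Rab6a at 46.4 ± 0.386. Ehd3 was then at 3.46 ± 0.137 and Rab6b at 0.184 ± 0.103 CPM per kilobase.

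Ehd3 made up 9.16%, 6.10% and 3.26% of the summed EHD level per kilobase in H3WT replicates 1, 2 and 3, and 0.952%, 0.948% and 0.971% in the H3K9M libraries. GENCODE lists a second Ehd3 transcript with a retained intron. With the exons of all transcripts as the length, the shares were 1.94% to 5.57% and 0.557% to 0.570%. Rab6b made up 3.34%, 2.68% and 2.54% of the RAB6 level in H3WT and 0.359%, 0.195% and 0.634% in H3K9M. The bulk of EHD transcripts was thus from Ehd4 and Ehd2 in both groups (44.9% and 35.6% in H3WT, 45.2% and 38.1% in H3K9M), and of RAB6 transcripts from Rab6a (97.1% and 99.6%).

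**Figure D2:**
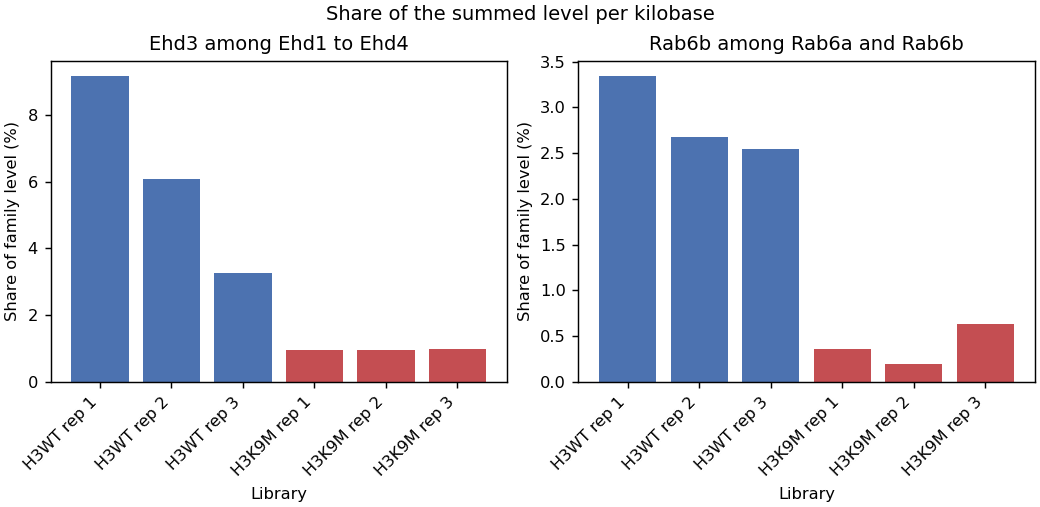
Share, in percent of the level per kilobase, of Ehd3 in the sum of the 4 EHD genes (left) and of Rab6b in the sum of both RAB6 genes (right), 1 bar per library, blue for H3WT and red for H3K9M. The H3WT bars of Ehd3 run from 3.26% to 9.16% and its H3K9M bars lie just under 1%; those of Rab6b run from 2.54% to 3.34% and from 0.195% to 0.634%.

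Both falls kept their sign and their side of the threshold in all 13 alternative fits. These fits reuse the libraries on which Ehd3 and Rab6b were chosen, so they show the dependence on settings and are no independent support. The log2 fold change of Ehd3 ranged from -2.89, without H3WT replicate 3, to -2.19, without H3WT replicate 1, and its edgeR adjusted p was at most 0.0489, without H3K9M replicate 2. That of Rab6b ranged from -3.48, without H3K9M replicate 3, to -2.65, without H3K9M replicate 2, with an edgeR adjusted p of at most 0.0496, without H3WT replicate 2. Neither Ehd2, Ehd4 nor Rab6a was called in any of the 13.

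**Figure D3:**
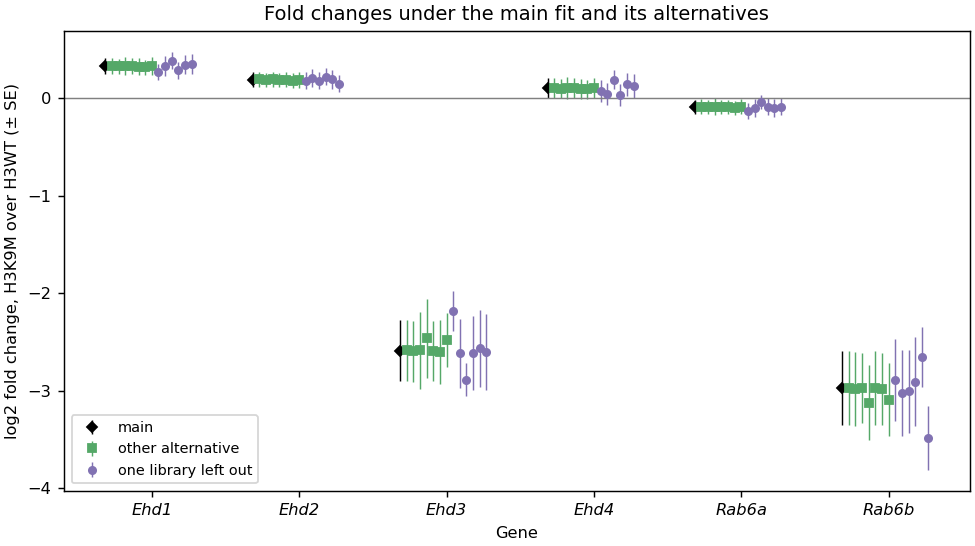
log2 fold change of H3K9M over H3WT with its SE for each gene, as reported (diamond), with another tool, filter, scaling or a replicate block (squares) and with 1 library left out (circles). Ehd3 stays between -2.89 and -2.19 and Rab6b between -3.48 and -2.65, and the other 4 genes stay near 0.

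For this contrast the authors' deposited table calls 4.10% of its genes and gives Ehd3 and Rab6b as lower too. Because Ehd3 and Rab6b were chosen on the same contrast, that is no independent support. For Ehd3 the log2 fold change in the authors' deposited table is -2.63 ± 0.40 (SE) with an adjusted p of 1.94e-08. For Rab6b the authors' deposited table gives -3.83 ± 0.47 with an adjusted p of 5.05e-13, a larger fall than the -2.97 that both edgeR and DESeq2 gave on the deposited counts. Ehd1, Ehd2, Ehd4 and Rab6a have log2 fold changes of 0.23, 0.16, 0.12 and -0.02 in the authors' deposited table, none past its threshold (adjusted p = 0.283, 0.411, 0.740 and 0.973).

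In the RAB family Rab6b was the 1 gene of 52 tested that passed the threshold, near the 1.99% of all genes, and it was chosen on this contrast. Of the 52 RAB genes 27 had positive and 25 negative log2 fold changes, and their median was 0.0183. The most negative log2 fold change after that of Rab6b was of Rab3c, a RAB of secretory vesicles, at 4.26 ± 2.44 and 1.66 ± 1.41 CPM (SD, n = 3), with overlapping groups and an edgeR adjusted p of 0.324 (log2 fold change -1.36; named after its value was seen). Among 10 other Golgi RABs none was called (range -0.53 to 0.21, median 0.0362). Rab2a, which acts between the endoplasmic reticulum and the Golgi, averaged 209 ± 7.55 in H3WT and 215 ± 13.4 CPM in H3K9M.

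Genes whose products work with RAB6 were mostly near 0 as well. Of 24 tested effectors and regulators 1 fell, against 1.05% of all genes, a count too small to set the list apart. In it 13 had positive and 11 negative fold changes, and the median was 0.0312. The gene that fell was Myh10, non-muscle myosin IIB, a motor known to bind RAB6 at the Golgi, with 476 ± 24.4 CPM in H3WT against 336 ± 21.5 in H3K9M (-0.50 ± 0.08 on the log2 scale; edgeR adjusted p = 0.0266). Its edgeR adjusted p was 0.123 without H3WT replicate 2, 0.0808, 0.0760 and 0.0928 without H3K9M replicates 1, 2 and 3, and 0.0879 with a replicate block. Apba1, an adaptor of neuronal transport, was at 13.1 ± 3.80 and 9.18 ± 1.36 CPM (-0.51 ± 0.22, edgeR adjusted p = 0.288), and Kif1c, a kinesin, at 595 ± 18.0 and 582 ± 35.6 CPM. Kif20a, the RAB6-binding kinesin of dividing cells, was at 99.9 and 96.1 CPM (named after its value was seen).

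None of the EHD-related groups held a called gene in edgeR. With 1.99% of all genes called, lists of 7 to 18 genes would hold few calls or none, so the zeros do not set these groups apart. Of 18 tested EHD partners 11 had positive and 7 negative fold changes (median 0.0648). Rab11fip5, an adaptor of recycling endosomes, averaged 114 ± 14.9 in H3WT and 147 ± 13.8 CPM in H3K9M without overlap (0.36 ± 0.11 on the log2 scale, edgeR adjusted p = 0.147). Pacsin2, a membrane-bending partner of EHD proteins, was at 194 ± 24.0 and 229 ± 16.7 CPM (0.24 ± 0.10, edgeR adjusted p = 0.296), Syt7, a calcium sensor of membrane fusion, at 3.73 ± 1.65 and 2.07 ± 0.340 CPM, and Myof, myoferlin, at 274 ± 5.59 and 291 ± 21.8 CPM. Of 18 recycling GTPases and RAB11 adaptors 13 were positive and 5 negative (median 0.0423), with Rab11a, the RAB of the recycling endosome, at 68.3 ± 1.87 and 77.0 ± 1.81 CPM (0.17 ± 0.07, edgeR adjusted p = 0.237).

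Caveolar genes, at the site where EHD2 acts, divided evenly, 5 positive and 5 negative of 10 (median 0.0131). Ptrf, which encodes cavin-1, was at 1237 ± 51.9 and 1222 ± 42.8 CPM, and Sdpr, which encodes cavin-2, at 284 ± 29.8 and 275 ± 10.9 CPM. Of 12 genes of the ankyrin-B and EHD3 pathway in heart none passed (8 positive, 4 negative, median 0.0241). Ank2, which encodes ankyrin-B itself, was at 60.2 ± 6.66 and 68.6 ± 10.6 CPM (0.19 ± 0.12, edgeR adjusted p = 0.505). Slc8a1, the sodium-calcium exchanger, was at 553 ± 117 and 592 ± 51.0 CPM. Abcc9, a subunit of ATP-sensitive potassium channels, was at 101 ± 11.9 and 158 ± 43.4 CPM (0.65 ± 0.18, edgeR adjusted p = 0.110). All 7 dynamin family genes had positive fold changes and none was called; Dnm2, the widely expressed dynamin, was at 204 ± 15.1 and 214 ± 3.15 CPM.

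At an unadjusted p under 0.05 edgeR had 16.4% of all genes, 3 of the 18 EHD partners, 2 of the 18 recycling genes, 1 of the 10 caveolar genes, 2 of the 12 ankyrin-B pathway genes, 0 of the 10 other Golgi RABs and 1 of the 7 dynamin genes. DESeq2 called 7.18% of all genes, and 1 gene each among the EHD partners, the recycling genes and the ankyrin-B pathway, and 0 among the caveolar, other Golgi RAB and dynamin genes, and limma-voom, which called 1.50% of all genes, called 0 in all 6 lists. Nothing in these counts sets a list apart from all genes.

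**Figure D4:**
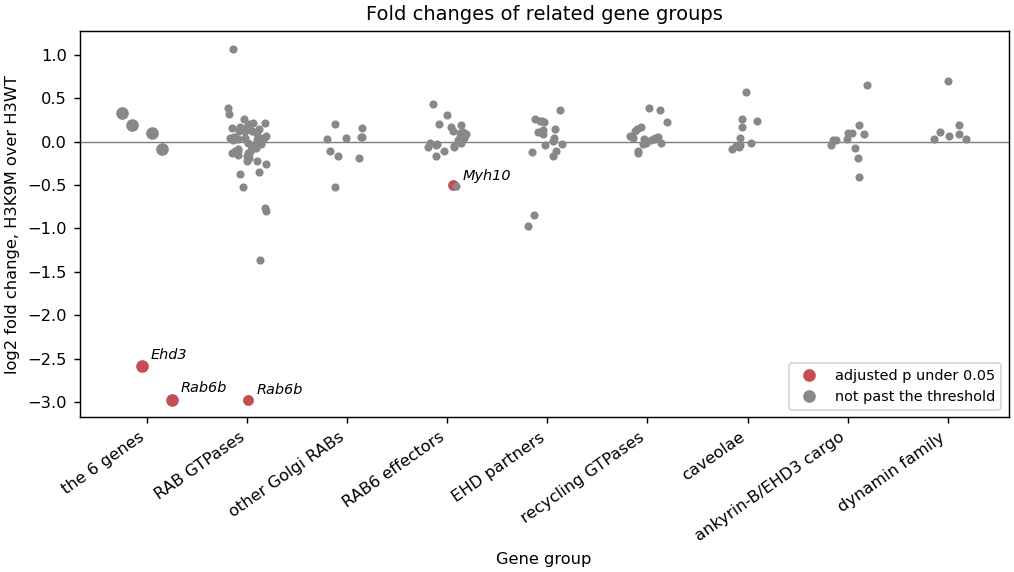
log2 fold change of H3K9M over H3WT (each point 1 gene) for the 6 EHD and RAB6 genes and for 8 related gene groups, red where edgeR's adjusted p is under 0.05. Ehd3 and Rab6b (shown again among the RAB GTPases) lie at -2.59 and -2.97, Myh10 at -0.50 is red as well, and the medians of the related groups lie between 0.0131 and 0.0880.

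Genes next to Ehd3 and Rab6b on the chromosome did not pass the threshold in edgeR with all 6 libraries. Beside Ehd3, the nearest tested genes before it were Galnt14 (log2 fold change -0.33 ± 0.54) and Lclat1 (-0.13 ± 0.08), and after it Xdh, xanthine dehydrogenase, at 16.3 ± 9.41 and 24.5 ± 0.668 CPM (0.59 ± 0.33, edgeR adjusted p = 0.422), and Memo1 (0.06 ± 0.08). Beside Rab6b, Srprb, the beta subunit of the signal recognition particle receptor, starts 2.76 kb after its end and was at 72.7 ± 7.58 and 70.9 ± 4.16 CPM (-0.04 ± 0.09).

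Of the other neighbours of Rab6b, Slco2a1, a prostaglandin transporter, was at 66.3 ± 9.33 and 92.8 ± 8.25 CPM (log2 fold change 0.48 ± 0.11, adjusted p = 0.0764 in edgeR). Trf, transferrin, was at 26.8 ± 9.42 and 13.3 ± 2.44 CPM (-1.01 ± 0.24, adjusted p = 0.0788 in edgeR). Neither had overlapping groups, and their directions were opposite. Both passed with DESeq2 (adjusted p = 0.00447 for Slco2a1 and 0.000751 for Trf) and in edgeR without H3WT replicate 3 (adjusted p = 0.0359 and 0.0372), and in none of the other 11 fits. Ryk was at 180 ± 8.51 and 205 ± 15.6 CPM.

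The start regions of Ehd3 and of its paralogue Ehd4, which did not pass the threshold, are shown to compare a changed with a less changed EHD gene. They are windows on GRCm38.p6 before the start of the RefSeq transcript, chr17:73804591-73804840 (plus strand) and chr2:120154607-120154825 (minus strand), the latter without its bases in an exon. The Ehd3 window lies before the protein-coding transcript but inside the non-coding one with the retained intron. Capitals mark CpG dinucleotides, the sites of DNA methylation.
Ehd3: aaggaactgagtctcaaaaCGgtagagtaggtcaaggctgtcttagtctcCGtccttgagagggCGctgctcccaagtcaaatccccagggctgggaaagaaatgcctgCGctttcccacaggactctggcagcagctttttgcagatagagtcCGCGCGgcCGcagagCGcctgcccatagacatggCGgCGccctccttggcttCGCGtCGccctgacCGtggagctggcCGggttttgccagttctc
Ehd4: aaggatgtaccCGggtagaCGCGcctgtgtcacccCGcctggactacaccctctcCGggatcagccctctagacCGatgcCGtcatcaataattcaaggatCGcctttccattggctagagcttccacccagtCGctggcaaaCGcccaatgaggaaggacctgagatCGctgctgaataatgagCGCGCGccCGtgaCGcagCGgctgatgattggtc

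The 250-base RefSeq windows are not all upstream of the GENCODE genes. Outside exons of coding transcripts lie 250 bases of the Ehd3 window, 219 of Ehd4, 218 of Ehd2, 74 of Rab6a and 0 of Rab6b, so the Rab6b values describe exon sequence and most of the Rab6a window does too. Counted over all 250 bases, exonic ones included, Ehd3 has 16 CpG and Ehd4 has 21. The stretch printed for Ehd4 is shorter and holds fewer. The full windows have 12 in Ehd2, 24 in Rab6a and 40 in Rab6b, against a median of 6 over 32841 RefSeq promoters. The GC content of the Rab6b window, exonic throughout, was 80.8%, with a median of 52.4% over all. Of 4 motifs searched on both strands, the GC box (GGGCGG) is in 32.7% of all promoters and here in 1 copy each in Ehd2, Ehd4 and Rab6b. The CCAAT motif is in 33.9% of all and here in 1 copy in Ehd2, 3 in Ehd4 and 2 in Rab6a. The E-box (CANNTG) is in 66.2% of all and here in 1 copy each in Ehd2, Rab6a and Rab6b. The TATAAA motif, in 12.4% of all, was in none of the 5, and the Ehd3 window held none of the 4.

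Named by the Pearson correlation of log2 CPM over the 6 libraries, which share the group difference, the genes most like Ehd3 were Itgb8, an integrin (r = 0.997), B3galt1, a galactosyltransferase (0.995), Aldh1a7, an aldehyde dehydrogenase (0.992), Ttc3, a ubiquitin ligase (0.990), and Sephs1, a selenophosphate synthetase (0.988). Like Ehd3, Itgb8 was highest in H3WT replicate 1, at 9.96, 8.43 and 7.27 CPM in H3WT, and near-constant in H3K9M, at 4.88, 4.56 and 4.55 CPM. B3galt1 was at 23.0, 18.1 and 14.4 CPM and at 9.39, 9.45 and 8.81 CPM. Their H3WT libraries kept the order of Ehd3 over a narrower range, and the choice by r favours such a shared order.

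Among the genes most like Rab6b were Adgrl2, an adhesion receptor of the latrophilin family (r = 0.999), Snrnp48, of the minor spliceosome (0.992), Pcp4l1 (0.992) and Zyg11b, of a ubiquitin ligase (0.991). Pcp4l1 was at 70.2, 61.7 and 71.4 CPM in H3WT and at 34.5, 29.5 and 42.9 CPM in H3K9M, with replicate 3 the highest H3K9M library as for Rab6b. Between Ehd3 and Rab6b r was 0.927, and between Ehd3 and Ehd1 it was -0.969. These values are descriptions over the same 6 libraries by which the most alike genes were chosen.

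Markers of other cells moved with Ehd3 in part. The summed level of 10 leukocyte markers was 498, 264 and 136 CPM in H3WT replicates 1, 2 and 3, the same order as Ehd3, and 202, 263 and 260 CPM in H3K9M. Ehd3 stood at 114, 73.3 and 41.8 CPM in these H3WT libraries and at 13.0, 12.1 and 12.9 CPM in these H3K9M libraries. Of these 10 markers 9 had negative fold changes, and edgeR called none of them, nor did any have an unadjusted p under 0.05.

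The summed level of 13 endothelial markers was 261 to 343 CPM in H3WT and 156 to 234 CPM in H3K9M without overlap. Of the 13 fold changes 12 were negative, and 2 genes were called lower, against 1.05% of all genes. An unadjusted edgeR p under 0.05 was found for 8 of the 13, against 16.4% of all genes. In 5 of the 13 the groups did not overlap, with H3K9M lower, against 11.3% of all genes. The 2 called genes were Npr3 (log2 fold change -1.09, edgeR adjusted p = 0.0181) and Nos3 (-1.02, edgeR adjusted p = 0.0444). The edgeR adjusted p of Npr3 was 0.0972 without H3WT replicate 2, 0.0607 and 0.0748 without H3K9M replicates 1 and 2, and 0.100 with a replicate block. Nos3 was not called in any of the 6 fits with 1 library left out (edgeR adjusted p 0.0753 to 0.126), nor with a replicate block (0.164), limma-voom (0.0517) or plain library size (0.0511). In replicates 1, 2 and 3 the endothelial sum was 261, 269 and 343 CPM in H3WT and 156, 234 and 184 CPM in H3K9M. 
Most fibroblast markers shared the H3WT order of Ehd3. Of 10 tested, 7 had this order, with replicate 1 highest and replicate 3 lowest, as had 9 of 10 leukocyte markers and their sums. So had 14 of 52 RAB genes, 4 of 9 epicardial and mesothelial, 3 of 13 endothelial and 0 of 12 cardiomyocyte markers. The share of all tested genes with this order was not computed, so these counts cannot set any list apart from all genes. Tcf21, a transcription factor of cardiac fibroblasts, was at 154, 93.7 and 49.1 CPM in H3WT and at 41.2, 61.3 and 57.9 CPM in H3K9M (named after its values were seen). Pdgfra, a growth factor receptor, was at 226, 148 and 87.5 CPM in H3WT and at 116, 105 and 88.3 CPM in H3K9M (also named afterwards). Both had overlapping groups. Fn1, Col1a1 and Postn were the fibroblast markers without the order of Ehd3, all highest in H3WT replicate 2. Fn1, fibronectin, was at 11672, 13188 and 11364 CPM in H3WT and at 7782, 8231 and 9732 CPM in H3K9M. Its groups did not overlap (-0.49 ± 0.12 on the log2 scale, edgeR adjusted p = 0.0797). Of the 10 fibroblast markers 7 had negative fold changes (median -0.52). The 1 called gene, Ddr2, a collagen receptor, was higher (0.66, edgeR adjusted p = 0.0210). With 0.935% of all genes called higher, this count is too small to set the list apart. Ddr2 lost its call without H3WT replicate 2 (0.0979), without H3K9M replicates 1, 2 and 3 (0.0514, 0.0686 and 0.0773) and with a replicate block (0.103). The part of leukocytes, endothelium or fibroblasts in the fall of Ehd3 was not tested.

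**Figure D5:**
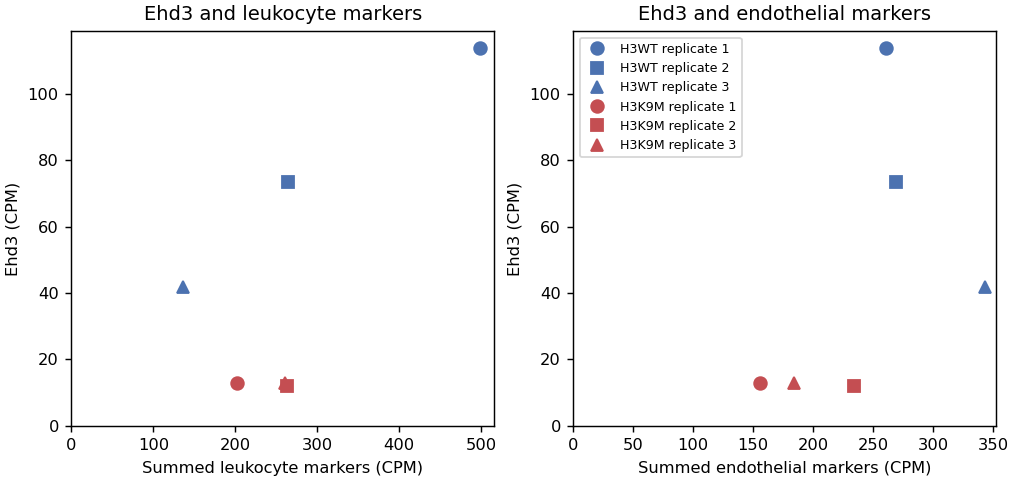
Level of Ehd3 (CPM) against the summed level of 10 leukocyte (left) and 13 endothelial markers (right) in each library, blue for H3WT and red for H3K9M, with 1 symbol per replicate. The H3K9M libraries lie at 12.1 to 13.0 CPM of Ehd3 over marker sums from 202 to 263 CPM for leukocytes and from 156 to 234 CPM for endothelium.

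Neuronal markers, of interest for Rab6b, had sums of 230 to 328 CPM in H3WT and 219 to 274 CPM in H3K9M, which overlapped. Most of that came from Tubb3 (193 and 174 CPM) and Uchl1 (77.1 and 74.4 CPM), while Elavl4, a defining neuronal gene, was under 1 CPM. Of the 14 neuronal genes listed 8 were in the table, and the other 6 were not analysed here. Of 6 tested neuronal markers 5 had negative fold changes and 1 was called lower, against 1.05% of all genes, a count too small to set the list apart. The called gene was Gap43, a growth cone protein, with 2.48 ± 0.974 CPM in H3WT against 0.411 ± 0.132 in H3K9M (-2.59 ± 0.44 on the log2 scale, edgeR adjusted p = 0.0313). Prph went the other way without overlap, at 0.210 ± 0.111 CPM in H3WT and 0.620 ± 0.201 in H3K9M (1.56 ± 0.59, edgeR adjusted p = 0.243). Without H3WT replicate 2 the adjusted p of Gap43 was 0.124, it was 0.0557 without H3WT replicate 3 and 0.0748 to 0.105 without each H3K9M library, and it was 0.0724 with limma-voom and 0.100 with a replicate block. Schwann cell and glial markers summed to 8.52 to 9.99 and 8.98 to 11.6 CPM, with none of 7 called. The part of neuronal cells in the fall of Rab6b was not tested. Smooth muscle and pericyte sums were 5866 to 7623 and 5547 to 6040 CPM and epicardial and mesothelial sums 142 to 195 and 149 to 201 CPM, both overlapping. Of 9 epicardial and mesothelial markers 6 had positive and 3 negative fold changes (median 0.95). An unadjusted edgeR p under 0.05 was found for 5 of the 9, against 16.4% of all genes. Among these 5, Aldh1a2 was lower (log2 fold change -0.92; named after its value was seen). The 1 marker called, against 0.935% of all genes called higher, was Krt8, a keratin, again a count too small to set the list apart. Krt8 was at 0.606, 0.883 and 1.26 CPM in H3WT and at 11.2, 11.7 and 3.82 CPM in H3K9M (3.27 on the log2 scale, adjusted p = 0.0159 in edgeR). Krt8 lost its call without H3WT replicate 2 (0.0979), without H3K9M replicate 2 (0.0649), with a replicate block (0.103) and with limma-voom (0.0916). The 7 erythroid genes listed were not analysed here.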

How the data were processed

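RNA was sequenced in 6 libraries, 3 H3WT and 3 H3K9M. HISAT2, featureCounts, DESeq2 and build mm10 are listed in the submitters' processing notes. Tool versions and strandedness: not given in the sources used here. Raw read counts per gene were deposited by the authors. A second table deposited by the authors gives, per the file headers, the mean normalised count (a signal), log2 fold change with its standard error, p-value and adjusted p-value of DESeq2; the score column deposited by the authors (the Wald statistic) was not used.

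Genes with low counts were removed by filterByExpr (minimum 10, total 15), and the rest were normalised with TMM and tested in R 4.3.3 by edgeR 4.0.16 (quasi-likelihood F test) in a model of group alone, with p-values adjusted by Benjamini-Hochberg over 14758 genes at 0.05. The standard error is the log2 fold change over the square root of F, and intervals use the total degrees of freedom. The common dispersion gave a biological coefficient of variation of 18.8%. CPM values are means ± SD of 3 libraries. Correlations used log2 of CPM plus 0.125 and genes of at least 5 CPM on average.

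Alternatives were DESeq2 1.42.0, limma-voom (limma 3.58.1), RLE factors, plain library size, no filter, at least 5 CPM in at least 3 libraries, a threshold of 0.01, a replicate block, and each library left out. On simulated counts of 14758 genes for this comparison edgeR found 67.0% of the 100 genes given a 2-fold change and 83.0% of the 100 given a 4-fold change; 12 of its 162 calls were false.

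The members and gene lists were chosen with earlier results of these data known. Genes named are the 6 members, up to 4 of each list (the smallest p and the highest CPM), called RAB genes, the 5 genes most like Ehd3 and Rab6b, and their 2 nearest tested genes on each side; not every gene the rule allows is reported. Positions and transcripts are from GENCODE M21 (GRCm38, also called mm10), promoters from RefSeq GRCm38.p6, which held 5 of the 6 genes. Replicates differed far beyond sampling noise (chi-square of 26.5 to 117.8 per gene).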

Additional observations from a re-analysis of the deposited data

How the results depend on the processing

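The counts of called genes, 138 higher and 155 lower, varied with the settings more than the values of Ehd3 and Rab6b. DESeq2 called 475 and 544, and an adjusted p under 0.01 left 31 and 28. Leaving out 1 library gave 30 to 149 higher and 30 to 223 lower. A replicate block gave 31 and 27. Across 10847 genes, deviations from the group mean correlated at -0.335, 0.0924 and -0.175 between libraries with the same replicate number. Only H3WT replicate 2 correlated best with its own number, and the highest correlation, 0.373, was between H3WT replicate 3 and H3K9M replicate 1. With 3 libraries per group these correlations cannot decide whether samples were paired. Ehd1 passed with DESeq2 alone (log2 fold change 0.33, adjusted p = 0.0121), and no direction of the 6 genes reversed in any of the 13 fits. The cause of these differences was not tested. Rab6b rests on 28 to 85 counts in the H3K9M libraries, so its level there is the least precise of the 6.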

Other observations

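The mean counts in the deposited count table were a median of 3.97 times the mean normalised counts in the authors' deposited table over 14412 shared genes, and 3.83 to 4.12 times for the 6 EHD and RAB6 genes. The authors' deposited table is thus on another scale than the counts, and the log2 fold change of Rab6b differed between that table and the fit here by more than those of the other 5 genes.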
